A study of Mus musculus with 68 samples.

Results

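The NRF2 antioxidant response genes are 10 mouse genes: the transcription factor gene Nfe2l2, which encodes NRF2, its repressor gene Keap1, and 8 classical targets, Gclc, Gclm, Slc7a11, Txnrd1, Srxn1, Hmox1, Nqo1 and Osgin1. They were chosen by gene symbol, with the brightest probe of each gene taken over all arrays, out of 24583 gene names on the array. All 10 had a probe. Altogether 16 probes carried their symbols, 6 genes had 1 probe, and the further probes of Hmox1, Nfe2l2, Txnrd1 and Slc7a11 served as a check. The study measured mouse lung with 68 single-colour arrays, 34 of alveolar septa (the thin walls between the air spaces) and 34 of vessels, each cut out by laser microdissection. Each compartment held the same 7 conditions. At 3 months these were wild-type animals in room air, wild-type animals exposed to cigarette smoke, and animals labelled as Fgf10 knock-down in room air or in smoke; the treatment text names the genotypes as Wt, Fgf10+/- and Fgfr2b+/-, and no array carries the last of these. The remaining conditions followed 8 months of room air or smoke and then 1 week with or without doxycycline: a room air control, a smoke control, both labelled wild-type for Fgf10, and smoke-exposed animals labelled as overexpressing Fgf10. Every group held 5 arrays except the room air knock-down groups, which held 4. The series text calls them biological replicates. The labels give no promoter or cell type for the transgene, no strain, age or sex, and do not say which controls received doxycycline. The growth text gives 3 months of smoke for all samples, against the 8 months in the titles and the treatment text, and the titles were followed.

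NRF2 is held in the cytoplasm by KEAP1, which hands it over for degradation; oxidants and electrophiles, both abundant in cigarette smoke, modify KEAP1, and NRF2 then accumulates in the nucleus. There it pairs with small MAF proteins at antioxidant response elements and raises enzymes of glutathione synthesis, thioredoxin recycling, haem breakdown and quinone reduction. In the lung the pathway is known for protecting epithelium and macrophages against smoke, and mice without it are more prone to smoke-induced emphysema.

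The sequences below show where 4 members carry the core of an antioxidant response element close to their start site, which is the element through which NRF2 is known to act. The core searched was TGACNNNGC, on both strands, in RefSeq promoters of GRCm38.p6 running from 250 bases before to 50 bases after each start site. Capitals mark the core; in Srxn1, Gclm and Txnrd1 it lies on the strand opposite to the gene. Sequences are 5′ to 3′ on the gene's strand.
Nfe2l2: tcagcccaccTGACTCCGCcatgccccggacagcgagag
Srxn1: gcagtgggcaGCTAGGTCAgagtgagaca
Gclm: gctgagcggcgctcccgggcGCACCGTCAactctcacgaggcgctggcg
Txnrd1: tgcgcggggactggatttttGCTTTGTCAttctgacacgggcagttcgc
The Nfe2l2 stretch lies at chr2:75704875-75704913 on the minus strand, and the first base of its core is at -240 from the start site. The Srxn1 stretch lies at chr2:152105542-152105570 on the plus strand with its core at 29 after the start site. The Gclm stretch lies at chr3:122245403-122245451 on the plus strand, core at -134, and that of Txnrd1 at chr10:82859094-82859142 on the plus strand, core at -92. These were 4 of the 10 promoters listed for 8 of the members; Hmox1 and Gclc are members whose promoters are not shown here. Across all 32851 listed promoters of the same length, 4071 held the core, which is 12.4%. A match describes letters in a window and not a bound site, and the distal enhancers known for several of these genes lie outside it.

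The deposited values are log2 intensities that had already been brought to one distribution, so the number of arrays limits the precision. A level is a log2 intensity throughout, a difference of 1 is a doubling, and levels of different probes are not compared. To begin with, 3 arrays correlated poorly with the others of their compartment: replicates 1 and 5 of the smoke-exposed knock-down septa (median correlations of 0.287 and 0.00566) and replicate 5 of the smoke-exposed knock-down vessels (0.469), against at least 0.709 for the other vessel arrays. Replicate 4 of the 8-month smoke-control septa, at 0.745, also lay below the remaining septal arrays, which reached at least 0.830. Several results that rest on the 3 low-correlation arrays, or on the spread they add, are given with and without them. Further, the brightest of 3 Fgf10 probes, the only probe of that gene shown here, followed the labels in some groups and not in others. In room air septa its level was 8.36 ± 0.60 (SD, n = 4) under the knock-down label and 7.71 ± 0.58 (n = 5) in wild type, and in room air vessels 5.51 ± 0.85 and 5.24 ± 1.89. In smoke-exposed septa the 5 knock-down arrays read 4.78, 8.54, 4.16, 7.82 and 3.77, the first and the last being low-correlation arrays, and the wild-type arrays 7.08 to 10.19. In smoke-exposed vessels it was 5.51 ± 1.70 and 6.26 ± 1.66 (n = 5 each). In septa after 8 months of smoke it was 8.21 ± 0.91 (n = 5) under the overexpression label and 9.01 ± 1.11 (n = 5) in the smoke control, and in vessels 5.47 ± 1.60 and 7.31 ± 1.08. Over all 68 arrays Fgf10 ranged from 3.77 to 10.83, and where its probe lies relative to the altered allele or the transgene is not given, so both labels are used here as labels only. Finally, replicate 4 of the smoke-exposed wild-type septa carries a knock-down entry against its title; the title was followed. Markers of the 2 compartments separated them: 6 of 6 smooth muscle markers were lower in septa, and 4 of 6 alveolar type 1 markers were higher (limma, adjusted p under 0.05 over all genes, all arrays).

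The levels of the members were first compared across the 14 groups. Every member passed the filter on dim probes (a level above each array's percentile 40, about 5.32, on at least 4 arrays) in both compartments. Gclc and Gclm, which encode the catalytic and modifier subunits of the glutathione-synthesis enzyme glutamate-cysteine ligase, were above that percentile on all 68 arrays. Slc7a11, the cystine importer that supplies this enzyme, was above it on only 23 of 68, so its values lie near background in most samples. Nqo1, a quinone reductase, exceeded it on 62 arrays, and the other members on 64 to 67.
Without the 3 low-correlation arrays, the group means of Nfe2l2 in septa ran from 9.94 in wild-type room air at 3 months to 10.82 in the 8-month smoke control. Those of Keap1 ran from 8.87 in wild-type room air at 3 months to 10.14 in the smoke-exposed knock-down septa. Gclc was lowest in the 8-month smoke control, at 11.14, and highest in the smoke-exposed knock-down septa, at 13.53. These orders are descriptive. Hmox1, which encodes the inducible haem oxygenase, had septal group means of 12.02 to 13.70, the highest in the 8-month smoke control, and vessel group means of 10.52 to 11.77. In vessels Nqo1 had the highest SD within a group of the members. With all arrays it was 3.49, in smoke-exposed knock-down vessels, and without the 3 it was 3.42, in wild-type room air vessels. The Nqo1 levels in wild-type room air vessels were 7.94, 4.43, 11.07, 11.49 and 4.48. Of the 130 pairs of neighbours in the orders of the 10 members over the 14 groups, 1 had an exact two-sided permutation p under 0.05 with all arrays: Hmox1 in septa from the 8-month smoke control, at 13.13 to 14.91, to smoke-exposed wild type at 3 months, at 12.01 to 13.06, which did not overlap (p = 0.00794). That is the smallest p of 5 against 5 arrays, and its Benjamini-Hochberg adjusted value over the 130 was 1, a correction that a single such pair cannot pass. For the other neighbours this p was not under 0.05. Neighbours were paired by these same means, which favours small differences, so these p-values do not show that the groups are alike.

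**Figure D1:**
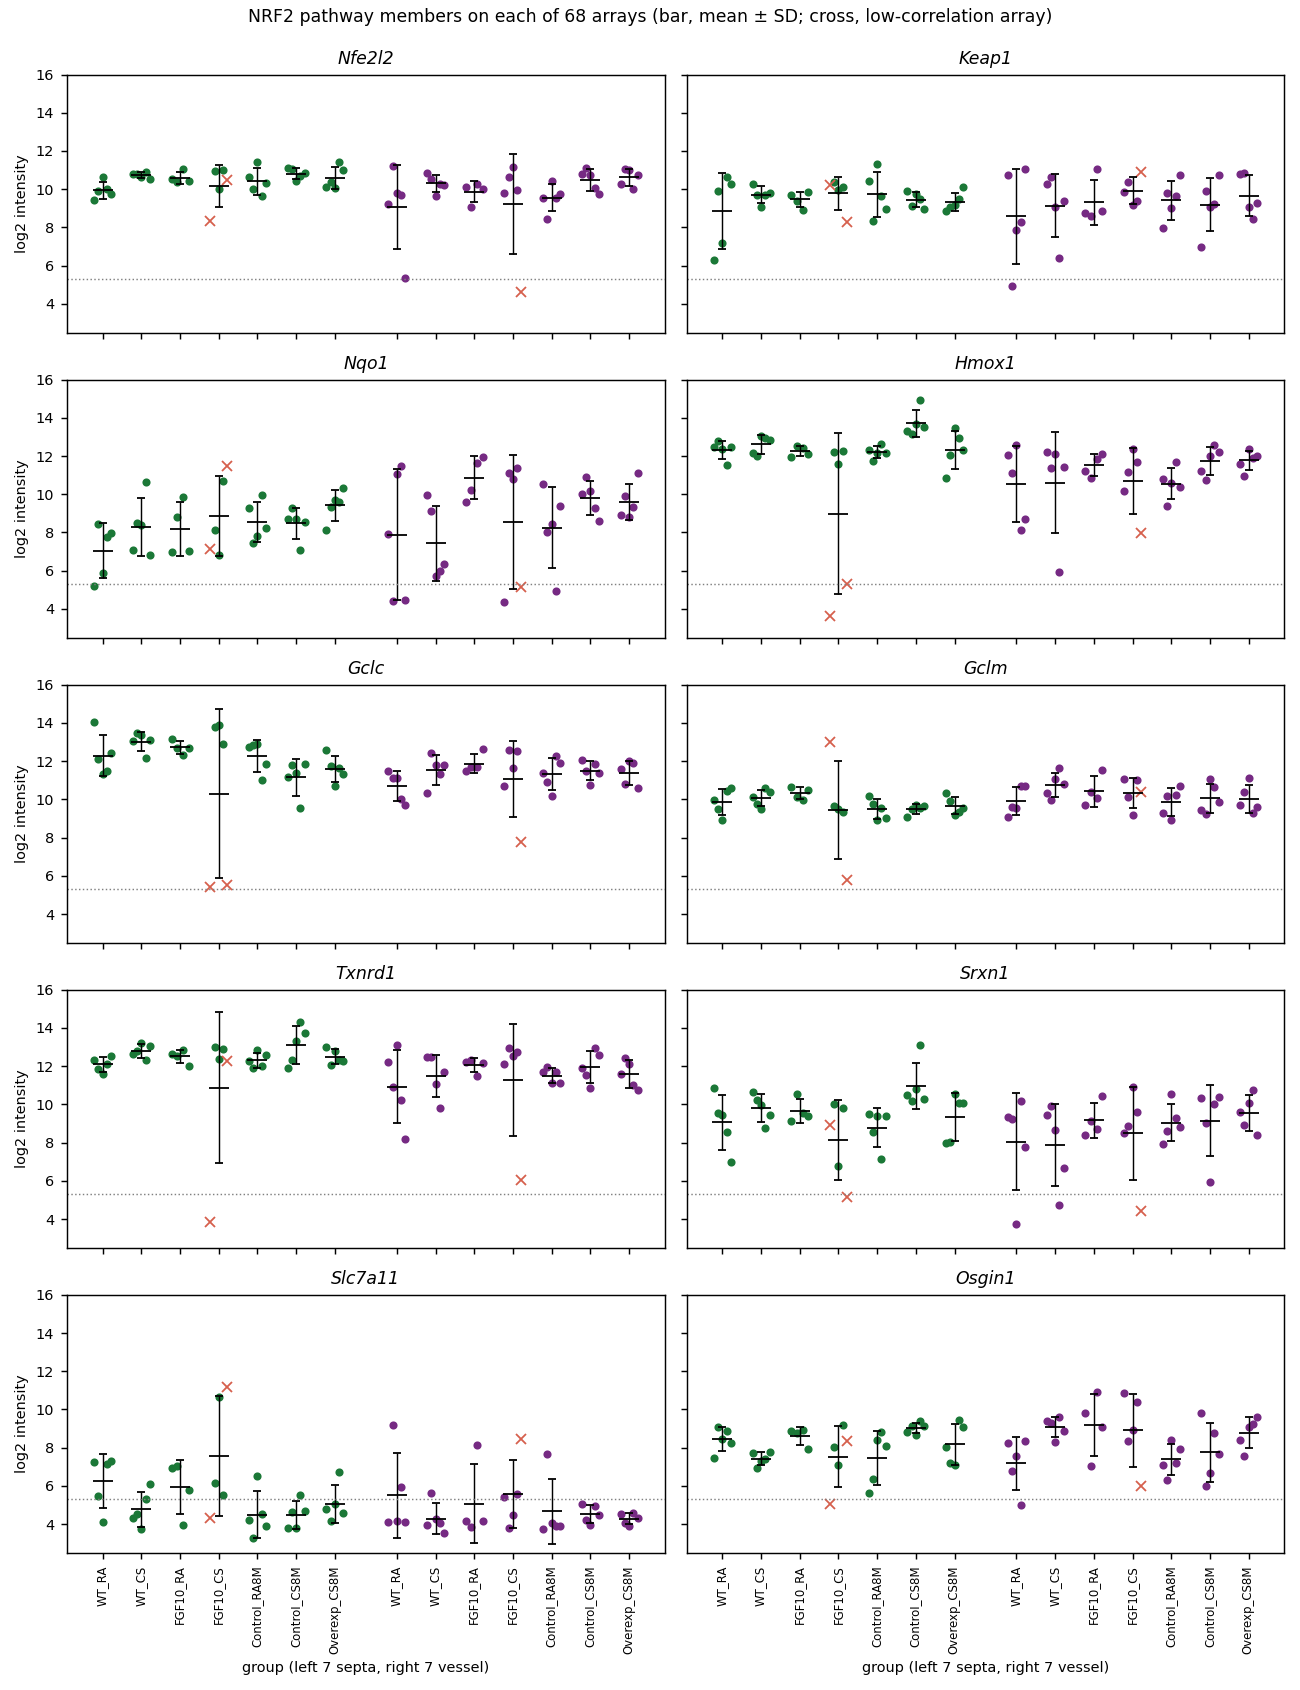
Log2 intensity of each of the 10 members on all 68 arrays, by group (WT, wild type; FGF10, labelled knock-down; RA, room air; CS, smoke; 8M, 8 months; Overexp, labelled overexpressing; septa left, vessel right); points are arrays, bars the mean ± SD, crosses the 3 low-correlation arrays, and the dotted line percentile 40. Hmox1 in the 8-month smoke-control septa sits between 13.13 and 14.91, above all room air controls at 11.74 to 12.64.

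Smoke for 8 months was compared with room air for 8 months in septa to ask how the response looked after the longest exposure. Haem oxygenase gene Hmox1 and sulfiredoxin gene Srxn1 were higher on every smoke array than on every room air array, and Osgin1, an oxidative-stress-induced growth inhibitor, was higher on average. None of these differences passed the test over all genes. Hmox1 measured 13.29, 13.13, 13.68, 14.91 and 13.51 in the smoke control, against 12.34, 11.74, 12.18, 12.64 and 12.15 in room air. The groups did not overlap, and replicate 4 of the smoke control was the highest. Its difference was 1.49 ± 1.00 (SE; p = 0.144, limma adjusted p = 0.824), a fold of 2.82, and the exact two-sided permutation test over 5 against 5 arrays gave p = 0.00794, the smallest this design allows. Srxn1, which repairs overoxidised peroxiredoxins, measured 10.49, 10.18, 10.82, 13.10 and 10.28 under smoke and 9.49, 8.53, 9.38, 7.14 and 9.41 in room air. Again the groups did not overlap, and replicate 4 held both the highest smoke level and the lowest room air level. Its difference was 2.18 ± 0.79 (p = 0.00883, limma adjusted p = 0.541), with the same exact permutation p of 0.00794. Osgin1 measured 8.83, 9.15, 8.67, 9.38 and 9.15 under smoke and 5.61, 6.36, 8.39, 8.82 and 8.11 in room air, where replicate 4 overlapped the smoke arrays. Its difference was 1.58 ± 0.63 (p = 0.0177, limma adjusted p = 0.605; exact permutation p = 0.0159).

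The other 7 members lay closer to their room air levels or, as Gclc, below them on average. Gclc measured 11.18, 11.82, 11.35, 9.52 and 11.85 under smoke and 12.75, 12.85, 12.91, 10.99 and 11.87 in room air, a difference of -1.13 ± 1.08. Its groups overlapped, and replicate 4 was the lowest array of each group. Txnrd1, which encodes cytosolic thioredoxin reductase, differed by 0.79 ± 0.94, Nfe2l2 by 0.42, Keap1 by -0.28 and Nqo1 by -0.08. Gclm differed by 0.01 and Slc7a11 by -0.02. In all, 0 of 10 members passed the limma threshold of an adjusted p under 0.05, against 5 of 21752 genes tested (0.0230%). At an unadjusted p under 0.05 there were 2 members, Srxn1 and Osgin1. Shares of all genes called in limma, here and below, are at the adjusted threshold. They are not the background of member counts at an unadjusted p, for which none is given here. Of the 10, 6 were higher under smoke with a median difference of 0.22, while the median over all genes was 0.05. The 2 members whose groups did not overlap upwards compare with 2.00% of all genes tested, and 0 members lay entirely lower, against 1.45%. Over the 60 exact tests of smoke (10 members in 6 comparisons), 7 had p under 0.05 and the smallest adjusted p was 0.190.

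**Figure D2:**
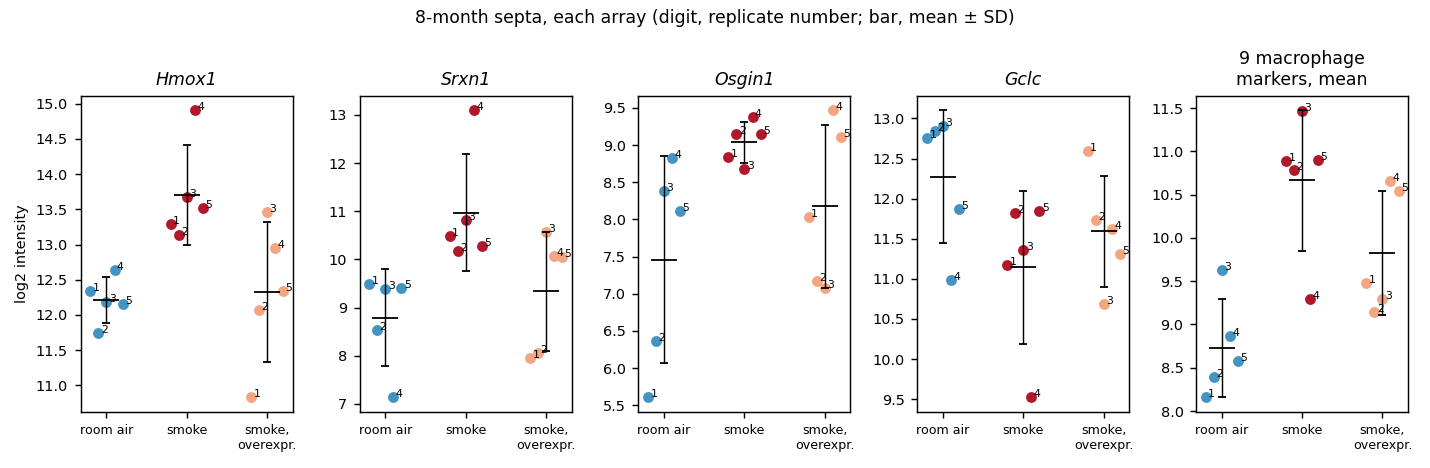
Log2 intensity of Hmox1, Srxn1, Osgin1 and Gclc, and the mean of 9 alveolar macrophage markers, on each septal array of the 8-month room air control, smoke control and overexpression-labelled smoke groups, with replicate numbers beside the points and bars for the mean ± SD. Hmox1 and Srxn1 separate the smoke control from the room air control, and replicate 4 of the smoke control is highest for both. Its macrophage marker mean, 9.29, is the lowest of its group. Its median correlation, 0.745, is the lowest of the septal arrays outside the low-correlation ones.

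Leaving out the 3 low-correlation arrays, which belong to other groups, did not change these differences but narrowed the shared error. Hmox1 then had an adjusted p of 0.062, Srxn1 of 0.106 and Osgin1 of 0.113 in limma, with SEs of 0.39, 0.70 and 0.52; still 0 of 10 members passed, against 153 of 20374 genes (0.751%). In that fit 3 other genes of the pathway rose: Maff and Mafk, whose small MAF proteins are the DNA-binding partners of NRF2, and Prdx1, a peroxiredoxin and NRF2 target. Maff measured 9.54, 10.17, 10.22, 11.20 and 10.16 under smoke and 6.77, 7.43, 6.47, 8.43 and 8.91 in room air, a difference of 2.66 ± 0.59 (limma adjusted p = 0.0289). Mafk measured 10.01, 9.41, 9.43, 10.98 and 8.83 under smoke against 7.12, 7.42, 7.91, 8.72 and 8.43, a difference of 1.81 ± 0.44 (adjusted p = 0.0451, limma). For neither gene did the groups overlap. Prdx1 measured 12.08, 12.82, 12.72, 14.60 and 13.05 under smoke against 10.87, 10.38, 11.43, 12.08 and 11.80, which meet at 12.08, and differed by 1.74 ± 0.41 (limma adjusted p = 0.0391). With all arrays kept none of the 3 passed, at adjusted p of 0.232 for Maff, 0.548 for Mafk and 0.635 for Prdx1 (limma). Without replicate 4 of the smoke control as well, the septal array with the lowest correlation of those kept, the adjusted p were 0.0785, 0.105 and 0.0987 in the same order, and the differences of Hmox1 and Srxn1 were 1.19 and 1.65.

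Further genes of the pathway were read from lists by function. The share of all genes that were higher is not given beside these lists, so their counts of genes higher are descriptions only. In the glutathione and thioredoxin list 7 of 11 genes were higher under 8 months of smoke (median 0.26), with 1 past the threshold without the low-correlation arrays, Prdx1. In the list of detoxification and export 14 of 19 were higher (median 0.31) and 0 passed; there Akr1b8, an aldo-keto reductase, differed by 2.05 with an adjusted p of 0.0515 (limma, without the 3 arrays). All 5 NADPH-supplying genes measured were higher, with a median of 0.94, and 6 of 7 haem and iron genes, with a median of 0.54, among them the biliverdin reductase Blvrb at 2.51 (adjusted p = 0.0761, limma, without the 3 arrays). No gene of these 2 lists passed. Of the 11 regulators 8 were higher and 2 passed, Maff and Mafk. For genes of the aryl hydrocarbon receptor, which senses polycyclic hydrocarbons of smoke, 5 of 6 were higher with a median of 0.96 and 0 passed. Cyp1a1, the classical target of that receptor, measured 6.89, 5.75, 6.71, 7.62 and 7.45 under smoke and 4.06, 4.38, 5.81, 5.57 and 3.96 in room air, a difference of 2.13 (adjusted p = 0.180, limma, without the 3 arrays). The lowest smoke array lay just under the highest room air array. For the ATF4 stress response, which shares targets with NRF2, 4 of 7 were higher with a median of 0.00.

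Markers of other cell types moved in the same comparison. In bulk tissue, a change in the number of cells of a type and a change in RNA per cell cannot be told apart. The mean of 9 alveolar macrophage markers ranged from 8.16 to 9.63 on the room air arrays and from 9.29 to 11.46 on the smoke control arrays, and no marker of the list was under percentile 40 on every array of either group. Of these 9 markers 8 were higher under smoke with a median difference of 2.08, and without the low-correlation arrays 3 passed in limma: the scavenger receptor Marco by 3.40 (adjusted p = 0.0140), Chil3 by 3.45 (0.00917) and the mannose receptor Mrc1 by 2.98 (0.0226). The 6 capillary endothelium markers were all lower, with a median of -0.98, and 0 passed. Of 6 neutrophil markers 5 were higher, with a median of 0.86 and 0 called; their list mean ranged from 10.20 to 12.05 in room air and from 11.17 to 12.75 under smoke. Alveolar type 1 and type 2 markers had medians of -0.15 and 0.58. Alveolar macrophages are known to express Hmox1 and Prdx1, and the part of the marker shift in these results was not tested. Over the 32 septal arrays without the low-correlation ones, the macrophage mean correlated with Hmox1 at r = 0.37 (rho 0.45), and with deviations from group means at 0.06; for Srxn1 these were 0.28 and -0.01, and for Nfe2l2 0.54 and 0.37. These correlations mix groups, share arrays and are given as descriptions.

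The group labelled as overexpressing Fgf10 after 8 months of smoke had septal Hmox1 levels of 10.83, 12.06, 13.46, 12.94 and 12.34, which spanned those of the room air control and reached into those of the smoke control. Srxn1 measured 7.96, 8.05, 10.57, 10.07 and 10.05 there, with replicates 1 and 2 low. Against the smoke control, Hmox1 differed by -1.38 ± 1.00 and Srxn1 by -1.63 ± 0.79 (limma adjusted p = 1 for both). Osgin1 differed by -0.86 and Nqo1 by 0.94. Of the members 0 of 10 passed, as did 0 of all genes (0%); 1 member, Srxn1, had an unadjusted p under 0.05, and 4 of 10 were higher. Without the 3 low-correlation arrays Hmox1 had an SE of 0.39 and an adjusted p of 0.444 (limma). Against the room air control Hmox1 differed by 0.12 and Srxn1 by 0.55, with 0 of 10 members, also at an unadjusted p under 0.05, and 1 gene (0.00460%) called by limma. Alveolar macrophage markers were lower in 8 of 9 against the smoke control, with a median of -0.83 and a list mean of 9.14 to 10.65 per array. Since both contrasts use the smoke control or the room air control of the previous comparison, they are not independent of it.

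At 3 months in wild-type septa no member was called, and Nfe2l2, Txnrd1 and Osgin1 had the lowest exact p among the members. Nfe2l2 measured 10.80, 10.80, 10.65, 10.90 and 10.55 under smoke against 9.42, 9.90, 10.63, 10.00 and 9.73 in room air. Room air replicate 3 alone reached the smoke levels. The difference was 0.80 ± 0.47 (limma adjusted p = 1; exact permutation p = 0.0159). Txnrd1 measured 12.66, 12.77, 13.21, 12.30 and 13.08 against 12.33, 11.84, 11.62, 12.12 and 12.55, a difference of 0.71 with an exact permutation p of 0.0238. Osgin1 went the other way, measuring 7.71, 6.92, 7.32, 7.39 and 7.76 under smoke and 7.48, 9.10, 8.44, 8.89 and 8.27 in room air, a difference of -1.02 ± 0.63 (exact permutation p = 0.0238). The first room air array lay among the smoke arrays. Nqo1 differed by 1.24 ± 0.83, Slc7a11 by -1.47 ± 0.94, Keap1 by 0.84, Srxn1 by 0.75 and Gclc by 0.74. Hmox1 differed by 0.28, and Gclm by 0.18. In total 0 of 10 members passed in limma, against 1 gene of 21752 (0.00460%), and 0 members had an unadjusted p under 0.05. Of the 10, 8 were higher, with a median of 0.73 against 0.01 over all genes. No other pathway gene passed. Alveolar macrophage markers were higher in 8 of 9 with a median of 1.54, their list mean ranging from 7.70 to 9.01 in room air and from 9.05 to 10.33 under smoke, and their part in these values was not tested.

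In wild-type vessels at 3 months, Osgin1 was the member that differed most. It measured 9.39, 9.29, 8.28, 9.61 and 8.86 under smoke and 8.26, 6.76, 7.59, 5.00 and 8.35 in room air, with the lowest smoke array just under the highest room air array. The difference was 1.90 ± 0.80 (p = 0.0241, limma adjusted p = 0.322; exact permutation p = 0.0159). Nfe2l2 differed by 1.25, but its dimmer second probe by -2.65, so the probes disagree in sign. Gclc differed by 0.84, Gclm by 0.83 and Slc7a11 by -1.22. Hmox1 differed by 0.09, with 1 smoke array at 5.92 and the other 4 at 11.36 to 12.21. None of the 10 passed the adjusted threshold in limma, while 32 of 22517 genes (0.142%) did. At an unadjusted p under 0.05 (limma) there was 1 member, Osgin1. Of the 10, 7 were higher, with a median of 0.55 against 0.10. The room air arrays of this comparison had median correlations of 0.709 to 0.822, and the smoke arrays of 0.760 to 0.895.

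One NRF2-regulated gene outside the members rose in these vessels: Abcc3, an exporter of conjugated organic anions. Abcc3 measured 8.77, 11.02, 10.83, 9.46 and 10.31 under smoke and 7.01, 4.51, 6.01, 6.20 and 6.25 in wild-type room air, without overlap, a difference of 4.08 ± 0.87 (limma adjusted p = 0.0405). It was 8.33, 10.37, 11.41 and 10.13 in the room air vessels labelled knock-down, 4.06 ± 0.92 above the same wild-type arrays (adjusted p = 0.0467, limma). The 8-month room air vessels, at 11.26, 10.26, 10.13, 7.77 and 8.48, lay 3.58 ± 0.87 above them (adjusted p = 0.0413, limma). All 3 contrasts share the wild-type room air vessel arrays, which held the lowest Abcc3 levels of the 4 groups. The median correlations of those arrays with the other vessel arrays were 0.709 to 0.822. Glrx, a glutaredoxin, rose by 3.52 ± 0.83 in the last of them (adjusted p = 0.0366, limma). Of 19 detoxification genes Abcc3 was the only one called in wild-type vessels under smoke, with 10 of 19 higher. Macrophage markers were higher in 8 of 9 (median 1.27) with 1 called, Mrc1 by 3.43 (adjusted p = 0.0405, limma), and the list mean ranged from 6.44 to 7.71 in room air and from 8.06 to 10.15 under smoke. Its part in the Abcc3 value was not tested.

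After 8 months of smoke in vessels, Hmox1 measured 11.21, 10.73, 11.99, 12.56 and 12.22 against 10.79, 9.38, 10.58, 11.69 and 10.36 in room air. The groups overlapped, and the difference of 1.18 ± 0.92 gave an exact permutation p of 0.0556. Nqo1 differed by 1.54 and Nfe2l2 by 0.93, while Srxn1, at 0.10, and Osgin1, at 0.38, moved less than their SEs. In this comparison 0 of 10 members and 0 of all genes (0%) passed in limma, and 0 members at an unadjusted p under 0.05; 8 of 10 were higher, with a median of 0.28. In the overexpression-labelled vessels Hmox1 was at 11.59, 10.98, 12.35, 11.91 and 12.00, 0.02 from the smoke control, and Osgin1 was 1.01 above it. Neither contrast called a member, or had one at an unadjusted p under 0.05 (limma), against 0% of genes compared with the smoke control and 0.0400% compared with the room air control, where 9 of 10 members were higher.

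**Figure D3:**
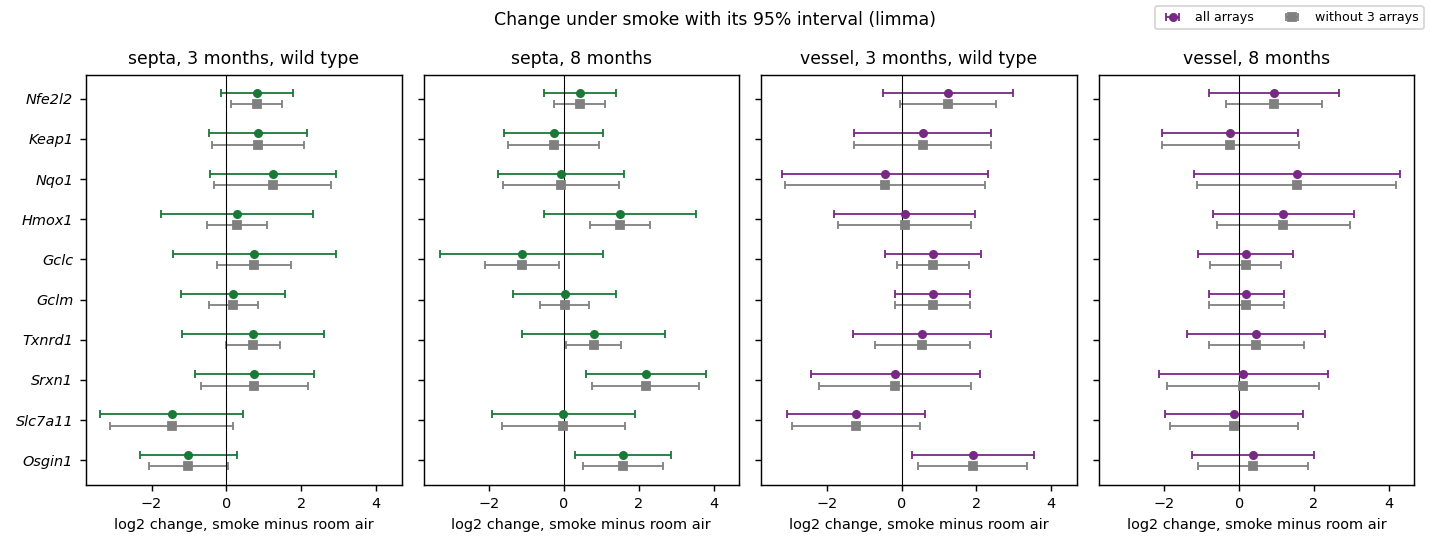
Difference between smoke and room air (log2) with 95% confidence interval for each member in 4 panels, wild type at 3 months and controls at 8 months in septa and vessel, with all arrays and without the 3 low-correlation arrays. Intervals from all arrays include 0 for most members; Srxn1 at 2.18 and Osgin1 at 1.58 lead the 8-month septa, and Osgin1 at 1.90 the 3-month vessels.

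Differences between responses to smoke were tested directly, and Osgin1 had the lowest p of the members in the first 2 comparisons below, with all arrays. Its septal smoke difference at 8 months exceeded that at 3 months by 2.59 ± 0.90 (p = 0.00653, limma adjusted p = 0.556; 0.0826 without the 3 low-correlation arrays). That comparison called 0 of 10 members and 1 gene (0.00460%), and Osgin1 was the 1 member with an unadjusted p under 0.05. At 3 months the smoke difference in wild-type septa lay 2.91 below that in vessels, -2.91 ± 1.02 (limma adjusted p = 1; 0.342 without the 3 arrays), with 0 of 10 members and 0 genes (0%) called and 1 member, Osgin1, at an unadjusted p under 0.05. Room air Osgin1 itself differed between the 2 exposure times in septa by -0.98, and the 8-month room air group contained 2 arrays at 5.61 and 6.36. For Srxn1 the 8-month difference in septa exceeded that in vessels by 2.08 ± 1.37 (limma adjusted p = 1), and for Hmox1 by 0.31, so no difference between compartments was resolved for either; 0 members, also at an unadjusted p under 0.05, and 0 genes (0%) were called. Gclc showed the lowest value of the 8-against-3-month test, -1.87, with an adjusted p of 0.137 without the 3 arrays (limma). Room air at 8 against 3 months called 0 of 10 members in septa (0.00460% of genes) and in vessels (0.862%). In limma 0 members had an unadjusted p under 0.05 there. The 8-against-3-month test in vessels called 0 of 10 members as well (0% of genes). The 8-month groups also had 1 week with or without doxycycline. In these tests exposure time cannot be told apart from that week or from other differences between the 3-month and 8-month groups.

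The groups labelled knock-down were compared with wild type in room air and in smoke. In room air septa 0 of 10 members, also at an unadjusted p under 0.05, and 0 of all genes (0%) passed in limma, with 8 of 10 higher and a median of 0.44. In room air vessels Nqo1 measured 9.61, 10.24, 11.64 and 11.97 under the knock-down label, all 4 above the wild-type mean, while the wild-type arrays given above split into 3 under 8 and 2 over 11. The difference was 2.98 ± 1.43 (limma adjusted p = 0.329). Osgin1 measured 9.81, 7.04, 10.90 and 9.08, a difference of 2.02 ± 0.85 (limma adjusted p = 0.274). These 2 had an unadjusted p under 0.05 (limma). No member passed the adjusted threshold, while 72 of 22517 genes (0.320%) did. Of the 10 members, 9 were higher, with a median of 1.05 where all genes had 0.01. The wild-type room air vessel arrays had median correlations of 0.709 to 0.822, against 0.867 to 0.890 under the knock-down label. That wild-type group had the lowest vessel mean of Nfe2l2, Keap1, Hmox1, Gclc, Txnrd1 and Osgin1. The part of array quality in these differences was not tested. In the same contrast 6 of 9 macrophage markers and 5 of 6 alveolar type 1 markers were higher, with medians of 1.01 and 1.21. The list mean of 6 airway club and ciliated markers had an array median of 12.95 under the knock-down label and 11.86 in wild type. For 6 pulmonary vein cardiomyocyte markers these were 11.10 and 8.59. The groups overlapped in both lists.

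Under smoke in septa, Hmox1 gave the only call among the members with all arrays: -3.62 ± 1.00 (limma adjusted p = 0.0498). The levels under the knock-down label were 3.61, 12.23, 11.58, 12.25 and 5.29, against 12.18, 12.01, 13.06, 12.95 and 12.85 in wild type. The 2 low values are replicates 1 and 5, the low-correlation arrays, and the groups overlapped. Without the 3 low-correlation arrays the difference was -0.59 ± 0.45 (adjusted p = 0.998, limma), and the dim second probe of Hmox1 gave 1.21 with all arrays. The call is 1 of 10 members (lower) against 2.89% of all genes, 2.47% of them lower; without the 3 arrays 0 of 10 members and 0% of genes were called. Gclc, at 5.39, 13.80, 13.91, 12.87 and 5.52, was low on the same arrays, as was Txnrd1 on the first of them, at 3.86. Slc7a11, with levels of 4.34, 6.14, 10.64, 5.52 and 11.17, was high on replicate 5 and on replicate 3. It differed by 2.78 with all arrays and by 2.65 without the 3 (limma adjusted p = 0.0654 and 0.998). Of its further probes 1 gave 2.25, and the others gave -0.32 and 0.18. With all arrays the glutathione reductase Gsr fell by 3.74, thioredoxin Txn1 by 4.31, Bach2 by 3.09 and Mafg by 3.35 (adjusted p of 0.0493 or 0.0498, limma). None passed without the 3 arrays. All 6 capillary endothelium markers were lower, with a median of -2.30, and all genes had a median of -0.15. Without the 3 arrays the marker median was -0.35.

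With all arrays, the same comparison in vessels called 0 of 10 members in limma, against 1210 of 22517 genes (5.37%). At an unadjusted p under 0.05 (limma) there were 0 members. That gene share includes a low-correlation array, and the share without it is not given here. There Nqo1 measured 4.35, 11.09, 10.79, 11.37 and 5.16 under the knock-down label and from 5.75 to 9.96 in wild type. The groups overlapped, replicate 5 of the former being a low-correlation array, and Nqo1 differed by 1.12 with all arrays and by 1.96 without the 3. The smoke difference within the knock-down label called 0 of 10 members in septa, where 0% of genes passed and Hmox1 was at -3.26 (adjusted p = 0.0711, limma) with all arrays and at -0.23 without the 3; 2 members, Hmox1 and Gclc, had an unadjusted p under 0.05. In vessels it called 0 of 10, also at an unadjusted p under 0.05, against 0.182% of genes. The interaction of smoke and label was not called for any member in septa (0% of genes; 2 members, Hmox1 and Slc7a11, at an unadjusted p under 0.05) or vessels (0.0222%; 0 members).

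**Figure D4:**
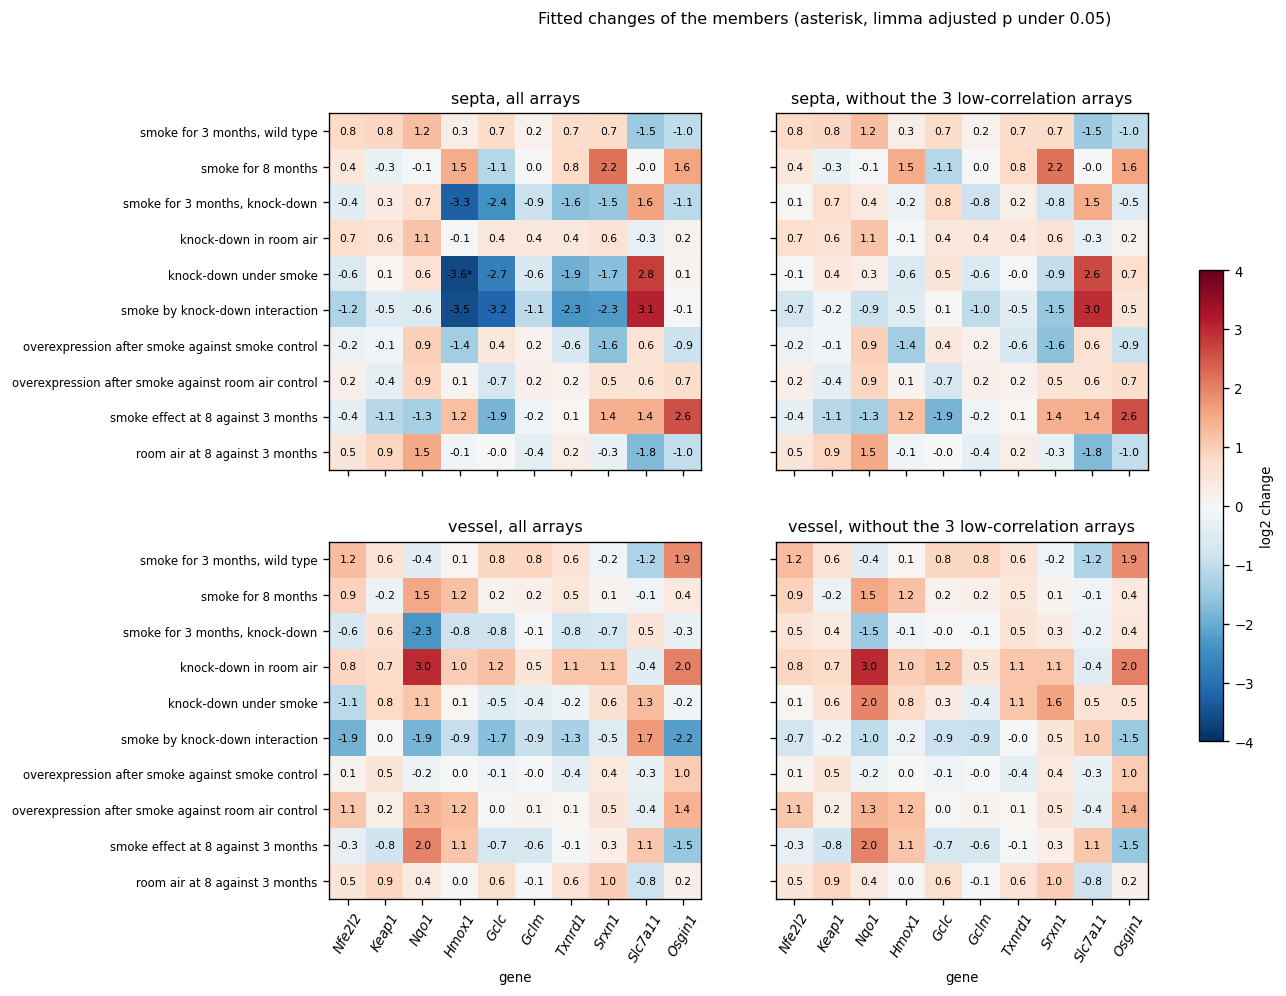
Heat maps of the log2 difference of each member (columns) in each comparison (rows), for septa and vessel, with all arrays and without the 3 low-correlation arrays, blue for lower, red for higher and an asterisk at limma adjusted p under 0.05. The single asterisk, in the septal map with all arrays, is Hmox1 at -3.62 in the smoke-exposed septa labelled knock-down against wild type.

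Septa and vessels were compared over all 7 conditions with equal weight. The labels do not tie arrays to animals, so arrays entered as independent; if the same animals gave both, the p-values do not account for it. Hmox1, Gclc and Txnrd1 were higher in septa once the low-correlation arrays were left out. Hmox1 differed by 1.34 ± 0.27 (limma adjusted p = 8.68e-05), Gclc by 0.91 ± 0.19 (0.000112) and Txnrd1 by 0.85 ± 0.20 (0.000639). Nfe2l2 was also higher, by 0.50 ± 0.20 (adjusted p = 0.0456, limma), and Gclm, the partner subunit of Gclc, was lower, at -0.42 ± 0.16 (0.0384). The 2 subunits of glutamate-cysteine ligase thus differed in opposite directions between the compartments. These are 5 of 10 members against 33.4% of all genes, with 4 higher against 18.5% and 1 lower against 14.9%, the background against which the members' count is to be read. With all 68 arrays 0 of 10 passed, against 19.8% of genes, Hmox1 coming closest at 1.00 ± 0.38 (adjusted p = 0.0510, limma). At an unadjusted p under 0.05 (limma) there were 3 members. Without the 3 arrays Hmox1 was higher in septa in 7 of 7 conditions, by 0.56 to 2.00. Gclc was higher by 1.59 in wild-type room air and by 1.49 in wild-type smoke at 3 months, and differed by -0.36 in the 8-month smoke control. The dimmer second probes of Txnrd1 and Nfe2l2 had the opposite sign, -0.56 and -0.39 with all arrays, while that of Hmox1 gave 0.56. Slc7a11, at 0.75, Srxn1, at 0.60, Nqo1, at -0.68, Osgin1, at -0.26, and Keap1, at 0.24, did not pass.

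Other antioxidant genes differed between the compartments in both directions with all arrays. Among 11 glutathione and thioredoxin genes 3 were higher in septa: the glutathione synthetase Gss by 1.21, the peroxiredoxin Prdx6 by 1.35 and Gsr by 1.43. Of 19 detoxification genes 2 were higher, the glutathione transferases Gsta3 by 1.15 and Gsta4 by 0.70, and 4 were lower, Gstp1 at -1.46, Gstm3 at -1.29, Gstm1 at -1.16 and the exporter Abcc1 at -1.08. The mu-class transferase Gstm2, at -0.49, did not pass (limma adjusted p = 0.226). The iron exporter Slc40a1, the NADPH-supplying malic enzyme Me1 and the regulators Btrc and Mafg were higher, by 1.63, 1.32, 1.13 and 1.25. Of 7 genes of the ATF4 stress response Atf4 itself was higher, by 0.90, and Ddit3 lower, at -1.19, and of 7 aryl hydrocarbon receptor genes the feedback regulator Tiparp was higher, by 0.98. From the same list the cytochrome P450 Cyp1b1, known from smooth muscle and fibroblasts, was lower, at -3.02 ± 0.34 (limma adjusted p = 2.98e-10). Apart from Gstm2, each of these passed limma at an adjusted p under 0.05, against 19.8% of all genes. Smooth muscle markers had a median of -3.42 and capillary endothelium markers of 1.46. The list mean of 6 airway club and ciliated markers had an array median of 9.82 in wild-type room air septa and 11.86 in vessels. For 6 pulmonary vein cardiomyocyte markers these were 5.56 and 8.59. Cell makeup thus differs between the compartments, and its part in these values was not tested.

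**Figure D5:**
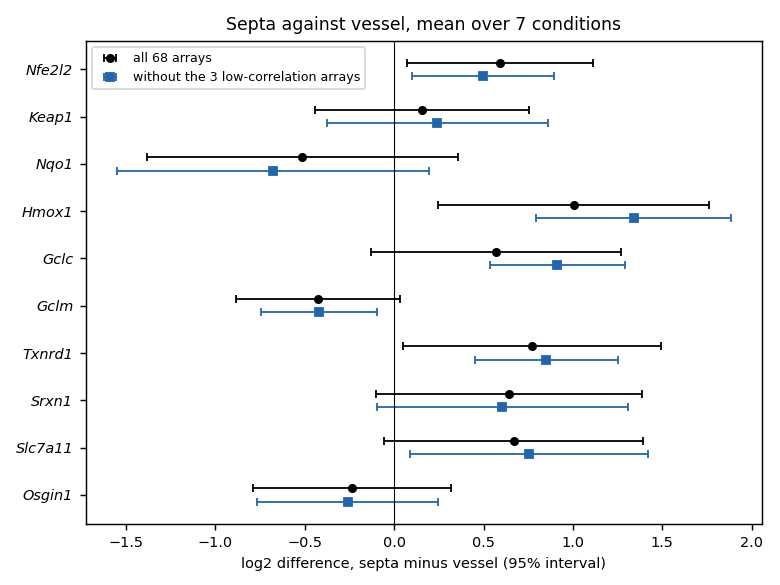
Difference between septa and vessels (log2, septa minus vessel) for each member with 95% confidence interval, for all 68 arrays and without the 3 low-correlation arrays. Hmox1, at 1.34, Gclc and Txnrd1 lie clear of 0 without those arrays, and Gclm lies below 0.

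The members did not vary as one block. Over the 32 septal arrays without the low-correlation ones, the median correlation of the 45 pairs of members was 0.088, and over the 33 vessel arrays 0.14. Hmox1 and Srxn1 had the highest septal correlation, r = 0.66 (rho 0.60), 0.49 for deviations from group means and 0.48 without the 2 arrays farthest in Hmox1. Hmox1 and Gclc had the lowest, r = -0.58 (rho -0.46), -0.51 for deviations and -0.45 without the farthest 2. In vessels Hmox1 and Txnrd1 led with r = 0.63 (rho 0.49), 0.63 for deviations. These points share normalisation and the amplification of small RNA amounts, and no p is given. Nqo1 was set against every gene, and the genes with the highest r are given with r and then rho. In septa, over 32 arrays and 17099 genes, they were Tmem39b (0.73, 0.70), Ahr (0.71, 0.67) and Spdya (0.69, 0.61). Ahr encodes the aryl hydrocarbon receptor. In vessels, over 33 arrays and 18160 genes, they were Sp4 (0.78, 0.65), Lats1 (0.77, 0.50) and Wdr92 (0.76, 0.63). For Hmox1 in septa they were Sec61a1 (0.86, 0.79), Cd63 (0.81, 0.64) and Tmem59 (0.80, 0.64). For Srxn1 in septa they were Uqcrq (0.82, 0.77), Ube2d3 (0.81, 0.75) and Rcl1 (0.81, 0.71). Hmox1 and Srxn1 were picked for this after their values were seen.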

How the data were processed

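The authors deposited log2 intensities for 62976 features on each of 68 single-colour Agilent arrays. RNA from laser-microdissected septa and vessels was amplified and Cy3-labelled, per the labels' protocols; the submitters' processing notes name limma without a version, and the background correction and normalisation are not given in the sources used here. Percentiles of any 2 arrays differed by at most 0.00352 (log2), so no further scaling was done. Gene names came from the platform annotation and RefSeq: 43941 features had 1 gene name, and 0 had several symbols. The brightest probe by mean over 68 arrays stood for each gene. Genes above percentile 40 on at least 4 arrays and with no missing value were tested (44 values were missing, on 5 arrays): 21752 in septa, 22517 in vessels, 24150 in both. limma 3.58.1 (R 4.3.3) fitted 7 group means per compartment on 34 arrays, so that all groups share the estimate of spread, and 14 group means for septa against vessel, treating arrays as independent; p-values were adjusted by Benjamini-Hochberg over all genes, threshold 0.05. Exact two-sided permutation tests used SciPy 1.17.1 (Python 3.11.15). Fits were tested on simulated data. The genes named are all members, Fgf10, markers, and pathway-list genes past the threshold or among the 2 highest or 2 lowest of their list. Gstm2, named in septa against vessel, was neither there. The 3 genes most like each of Nqo1, Hmox1 and Srxn1 by Pearson correlation are also named. The members and lists were chosen with earlier results of these data known. Alternatives were the filter, the probe rule, array weights, the replicate number as a block, the conflicting array under its other label, the compared groups alone, and leaving out each array or the 3 low-correlation arrays.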

Additional observations from a re-analysis of the deposited data

Results flagged for a closer look

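A sample lay far from the others of its group, by Dixon's test on the gap to the nearest array, in 13 of the 140 combinations of member and group; chance gives about 7, and 4 of the 13 fall on the 3 low-correlation arrays. Those 4 were the lowest values of Nfe2l2 (4.62) and Txnrd1 (6.06) on smoke-exposed knock-down vessel replicate 5, of Keap1 (8.26) on smoke-exposed knock-down septa replicate 5 and of Txnrd1 (3.86) on replicate 1 of the same group.

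In the 8-month smoke-control septa replicate 4 held both the highest Srxn1 level (13.10) and the lowest Gclc level (9.52). Without it and the 3 low-correlation arrays, the Gclc difference from room air was -0.73 and that of Srxn1 1.65. In the smoke-exposed wild-type septa replicate 4, the array with the conflicting label, had the lowest Gclc level (12.14).

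Room air vessels labelled knock-down had 3 such values on replicate 3, the highest Keap1 (11.08) and Slc7a11 (8.16) and the lowest Txnrd1 (11.50). The others were the lowest Hmox1 in smoke-exposed wild-type vessels (5.92, replicate 4), the highest Slc7a11 in 8-month room air vessels (7.69, replicate 2) and the lowest Osgin1 in room air septa labelled knock-down (7.94, replicate 4).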

How the results depend on the processing

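Of 5150 repeats of 230 single-member values under other settings, 4785 kept their direction and side of the threshold. In 310 the direction changed, with the value called in neither setting. A further 42 newly passed, 13 no longer passed, and none reversed a called direction. The count of members called stayed at 0 in the 3-month wild-type and both 8-month smoke comparisons. In septa under smoke, knock-down label against wild type, the 1 call (Hmox1) became 0 with no filter, with the mean of all probes, with array weights, with the conflicting array as knock-down, without the 3 low-correlation arrays and with the compared groups alone, where Hmox1 had an adjusted p of 0.556 (limma); leaving out 1 array gave 0 to 3. The smoke difference within that label in septa gave 0 to 2 when 1 array was left out, 2 without replicate 2 or 3. In vessels under smoke 1 member, Nqo1 at 3.78, was called with array weights. For septa against vessel the count was 1 with the mean of all probes, 5 with array weights, 1 with the conflicting array as knock-down, 5 without the 3 low-correlation arrays, and 0 to 3 with 1 array left out, 3 without smoke-exposed knock-down septa replicate 1. With the replicate number as a block it was 1, Hmox1 at 1.00 (adjusted p = 0.0467, limma), and the block changed no other count. Of 62 same-numbered pairs 10 had correlated deviations over 0.1 (median 0.0172). Same-numbered septa and vessels of the smoke-exposed knock-down groups, which hold the 3 low-correlation arrays, gave 0.0693 to 0.381. Those of smoke-exposed wild type gave -0.231 to 0.0816. Whether equal numbers share an animal cannot be told from these values. With one array left out, the 8-month septal differences ranged from 1.65 to 2.38 for Srxn1, 1.19 to 1.64 for Hmox1 and 1.12 to 1.92 for Osgin1. Signal limits Slc7a11, above percentile 40 on 23 of 68 arrays, and the dim second probes.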
